A study of Mus musculus with 20 samples.

Results

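Expression of 10 genes of the fibroblast growth factor (FGF) pathway and of its ERK feedback was followed in mouse epiblast-like cells (EpiLCs) and in aggregates made from them. Doxycycline was added to all aggregates to switch on transgenes for germ cell factors. The parental line lacks these transgenes, and their induction was not checked here. The 10 genes are the ligands Fgf4, Fgf5 and Fgf8, the receptors Fgfr1 and Fgfr2, the phosphatases Dusp4 and Dusp6, the inhibitors Spry2 and Spry4, and the transcription factor Etv4. They were found by gene symbol in the platform annotation, which gave 23 probe sets for them among 45101 on the array and 10 of 18193 annotated genes. The choice of genes used no measured value, but it was made with earlier results of these data known.

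RNA was measured on 20 Affymetrix arrays, 2 in each of 10 groups that cross 5 cell lines with 2 stages. All lines are male, of the strain mix C57BL/6;129, and carry Blimp1-mVenus and stella-ECFP reporters and Rosa26-rtTA, the activator that answers to doxycycline. The BP14A line adds Avi-Blimp1, 3xFLAG-Prdm14 and V5-Tfap2c, the B line Avi-Blimp1, the P14 line 3xFLAG-Prdm14 and the A line V5-Tfap2c, each under a doxycycline-responsive tetOx8-mCMV promoter on a piggyBac transposon. The parental line (BVSCR26rtTA) has no added factor. Day 1 samples are whole aggregates after 24 h with 1.5 μg/ml doxycycline, in every line including the parental one. EpiLCs are cells after 36 h of differentiation, before aggregation and doxycycline. Because every line is a single clone, an effect of the factor and one of the clone cannot be told apart. The change between the stages combines aggregation, medium and doxycycline, and no aggregates without doxycycline were analysed here.

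Array medians lay between 4.60 and 4.86 on the log2 scale, and the arrays of a group correlated at Pearson r of 0.966 to 0.976 across all probe sets, which are not independent replicates. Both arrays of a group are described as biological duplicates, and having 2 limits the precision. All 6 epiblast markers fixed for the check (Pou5f1, Sox2, Dnmt3b, Otx2, Pou3f1 and Utf1) were at or above the filter level of 3.95 in all 10 groups, and their summed level was 60.8 in BP14A, 66.7 in B, 64.8 in P14 and 68.5 in A aggregates, against 68.9 in parental ones. Pou3f1 read 6.81 in BP14A and 8.37 in P14 aggregates, against 11.68 in parental ones, and Dnmt3b 9.87 and 11.14, against 13.21. Otx2 read 8.93 and 10.07, against 10.675. Sox2 went the other way, with 12.545 and 12.495, against 10.705. Pou5f1 (12.495 and 12.495, against 12.49) and Utf1 (10.155 and 10.225, against 10.13) stayed close to the parental level in BP14A and P14, so the sum joins rises and falls. In B aggregates Sox2 was also above its parental level (11.83). There Otx2 (9.185), Utf1 (9.46), Pou3f1 (11.07), Pou5f1 (12.155) and Dnmt3b (12.975) were below theirs. Summed over 5 early germ cell markers, Prdm1 and Tfap2c among them, the level was 47.9 in BP14A, 39.5 in B, 43.4 in P14 and 30.8 in A aggregates, against 30.9 in parental aggregates. The summed level of 6 naive markers was 44.5, 38.0, 43.6 and 35.3 in the same lines, against 35.0 in the parental line. In B, Tfcp2l1 (6.28 against 4.24) and Esrrb (7.245 against 6.285) were furthest above the parental level. Klf4 was below it (4.94 against 5.64), so this sum also joins rises and falls. Between 3 and 4 of 6 fibroblast or feeder markers were at or above the filter level in every group, and no marker of any class had a group mean at 0. Summed over 5 neural markers the level was 20.3 in BP14A, 25.1 in B, 23.8 in P14 and 27.7 in A aggregates, against 29.1 in parental ones. In B, Nes (5.37 against 7.87) and Zic1 (2.38 against 4.025) were furthest below the parental level, and Pax6 was above it (5.77 against 5.225). The part of these marker levels in the results was not tested. Tfap2c, a marker on the germ cell list, read 5.94 in A aggregates against 6.34 in parental aggregates, and no source used here says whether its probe sets read the transgene, so they check no label. The same holds for Prdm1, the gene of Blimp1, on the germ cell list and for Prdm14 on the naive list. Prdm1 read 8.67 in BP14A and 6.36 in B, against 4.955, and Prdm14 4.035 in BP14A and 3.505 in P14, against 3.63. Whether these sums hold transgene signal was not tested. In bulk RNA, fewer cells of a type and less RNA per cell cannot be told apart.

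FGF ligands bind receptor tyrosine kinases and switch on RAS, RAF, MEK and ERK. Active ERK induces its own brakes: Sprouty proteins act between the receptor and RAF, and dual-specificity phosphatases (Dusp) remove phosphate from ERK, Dusp6 mainly in the cytoplasm and Dusp4 in the nucleus. Etv4, an ETS factor, is a common transcriptional readout of FGF signalling. In the mouse embryo, Fgf4 is made by the inner cell mass and epiblast, Fgf5 marks the primed epiblast and Fgf8 is needed for gastrulation. In mouse embryonic stem cells FGF and ERK promote exit from the naive state, and Prdm14 is known to dampen FGF receptor signalling there.

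Upstream sequence was available for 5 of the 10 genes. It is shown for Fgf4 and Dusp6, which were both lower on day 1 than before it in every line, and for Fgfr2, which rose over EpiLCs in the 3 lines that carry Blimp1 or Prdm14. Each sequence holds the 250 bases before the annotated start, 5′ to 3′ on the gene's strand, from RefSeq on GRCm38.p6, at chr7:144861136-144861385 (plus strand) for Fgf4, chr10:99262981-99263230 (plus strand) for Dusp6 and chr7:130266809-130267058 (minus strand) for Fgfr2. Capitals mark CCAAT or its reverse complement, a common promoter element that was looked for after the sequences were seen.
Fgf4: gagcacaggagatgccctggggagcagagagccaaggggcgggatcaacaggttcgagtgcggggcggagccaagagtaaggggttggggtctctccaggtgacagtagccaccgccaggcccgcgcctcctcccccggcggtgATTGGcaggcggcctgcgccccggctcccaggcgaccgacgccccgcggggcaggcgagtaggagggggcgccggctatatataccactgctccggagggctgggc
Dusp6: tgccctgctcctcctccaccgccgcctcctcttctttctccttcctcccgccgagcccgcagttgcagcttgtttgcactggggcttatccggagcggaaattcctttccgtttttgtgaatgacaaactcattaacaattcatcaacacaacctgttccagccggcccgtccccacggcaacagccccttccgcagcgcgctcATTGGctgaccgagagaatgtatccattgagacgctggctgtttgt
Fgfr2: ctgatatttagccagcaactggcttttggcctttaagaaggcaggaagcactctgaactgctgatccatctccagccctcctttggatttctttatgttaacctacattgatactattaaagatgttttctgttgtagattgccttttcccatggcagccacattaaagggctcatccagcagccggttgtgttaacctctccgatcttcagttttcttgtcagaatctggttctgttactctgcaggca
The CCAAT letters occurred once in the Fgf4 window, beginning 106 bases before the start, and once in the Dusp6 window, 46 bases before it. They were in 33.8% of all 32851 windows of this length. On both strands, none of the 3 windows held the ETS core CCGGAA (12% of all windows), the AP-2 palindrome GCCNNNGGC (13.7%), the Prdm14 motif GGTCTCTAA (0.24%) or the Blimp1 motif AGNGAAAG (7.3%). Of the 2 windows not printed, that of Fgf5 held 1 ETS core and 1 AP-2 match and that of Spry2 held 2 AP-2 matches and 1 Blimp1 match, and neither held CCAAT. The windows of Fgf4, Dusp6 and Fgfr2 had 71.2%, 56.4% and 44.0% G and C.

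**Figure D1:**
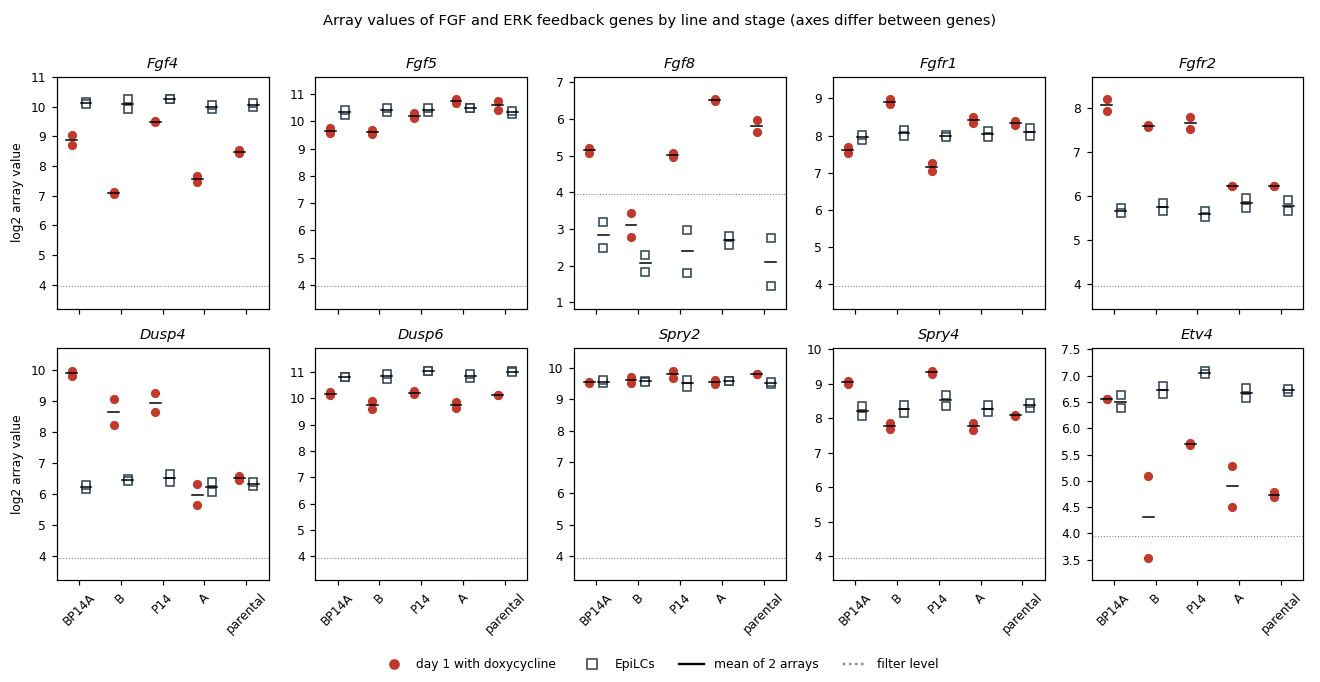
Log2 array value (y axis, scale set per gene) of the brightest probe set of each of the 10 genes by line (x axis), with 1 point per array, filled circles for day 1 and open squares for EpiLCs. Bars are means of 2 arrays and the dotted line is the filter level of 3.95. EpiLC group means differ by at most 0.55 for every gene but Fgf8 (0.78), while the filled circles of Dusp4 run from 5.65 to 9.96 and those of Fgf4 from 7.07 to 9.51.

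Before doxycycline the 5 lines were close. Group means of EpiLCs differed between the lines by 0.08 for Spry2, by 0.15 for Fgfr1 and by 0.55 for Etv4. The widest spread, 0.78, was that of Fgf8, whose EpiLC means (2.07 to 2.84) all lay below the filter level. None of the 10 genes was called in any line's EpiLCs against parental EpiLCs. A call here means a limma adjusted p (Benjamini-Hochberg over 14010 genes) under 0.05 and a log2 difference of at least 1. Over all genes tested, 0.0143% were called in the BP14A line, 0.0785% in the B line, 0.0357% in the P14 line and 0.0286% in the A line, or 2, 11, 5 and 4 genes. At an unadjusted p under 0.05 those comparisons held 1046, 1516, 819 and 1079 genes. Without the first parental EpiLC array the calls became 10 in BP14A, 16 in P14 and 9 in A, and without the second 26 in B.

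The ligands of the parental line parted on day 1. Of the 10 genes 3 were called, Fgf8 higher and Fgf4 and Etv4 lower, beside 6.59% of all genes in that comparison. Fgf4 read 8.43 and 8.52 in day 1 aggregates, against 9.99 and 10.13 in EpiLCs. Every day 1 array was thus below every EpiLC array, by 1.59 ± 0.12 on average (SE of the log2 difference, limma adjusted p = 1.56e-06). Another Fgf4 probe set, described further on, spanned only 0.40 over all 10 groups. Fgf8 read 5.98 and 5.64 in day 1 aggregates, against 1.44 and 2.74 in EpiLCs. It rose by 3.72 ± 0.44 (limma adjusted p = 4.57e-05), a size that is approximate because the EpiLC mean lay below the filter level. Fgf5 read 10.43 and 10.75 in day 1 aggregates, against 10.28 and 10.39 in EpiLCs, and the difference of 0.26 missed the adjusted p (limma adjusted p = 0.128, interval −0.01 to 0.52).

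Targets and brakes of ERK differed in size of change in the parental line. Etv4 read 4.79 and 4.69 in day 1 aggregates, against 6.69 and 6.75 in EpiLCs, and fell by 1.98 ± 0.37 (limma adjusted p = 0.00131). A second Etv4 probe set averaged 4.35 in day 1 aggregates, against 4.905 in EpiLCs. Dusp6 read 10.14 and 10.11 in day 1 aggregates, against 11.02 and 10.98 in EpiLCs. Its difference of −0.88 ± 0.11 passed the adjusted p (limma, 6.92e-05) but not the size limit of 1. Dusp4 differed by 0.20 (limma adjusted p = 0.644), Spry4 by −0.29 (adjusted p = 0.130), Spry2 by 0.30 (adjusted p = 0.0256), Fgfr1 by 0.24 (adjusted p = 0.117) and Fgfr2 by 0.44 (adjusted p = 0.0178). None of these reached the size limit.

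The same step in the other lines was called for 4 of the 10 genes in BP14A, 5 in B, 4 in P14 and 4 in A, beside 10.6%, 9.72%, 8.06% and 6.12% of all genes. Fgf8 rose by 2.30 in BP14A, 2.63 in P14 and 3.83 in A, and in B it differed by 1.04 (limma adjusted p = 0.00105, 0.000511, 3.63e-05 and 0.0761), again approximate sizes. Fgf4 fell in BP14A (−1.25), B (−2.99) and A (−2.43), while its difference in P14 was −0.75, under the size limit (limma adjusted p = 4.98e-06, 8.50e-09, 6.68e-08 and 0.000394). Dusp6 fell in B (−1.09) and A (−1.09). In BP14A and P14 its differences were −0.63 and −0.83, under the size limit (limma adjusted p = 0.000520 and 8.26e-05). Etv4 fell in B (−2.41), P14 (−1.36) and A (−1.77), and in BP14A it differed by 0.05 (interval −0.75 to 0.85). Its second probe set averaged 3.955 on day 1 against 4.635 in EpiLCs of B and 4.435 against 4.91 in A. In P14 that probe set averaged 4.98 against 4.78, and in BP14A 5.3 against 4.935. Dusp4 and Fgfr2 rose in BP14A by 3.66 and 2.41, in B by 2.19 and 1.85 and in P14 by 2.43 and 2.08. The Etv4 call in P14 ended without any 1 of the 4 arrays compared (limma adjusted p from 0.0503 to 0.0621), and the Dusp6 calls ended without the second B array of either stage (−0.94 for the day 1 array and −0.995 for the EpiLC array) and without the second A day 1 array (−0.98). Etv4 in P14 was also not called when the probe sets of a gene were averaged (−0.58, adjusted p = 0.118), nor was Fgf4 in BP14A (−0.92). In a fit on the 4 arrays compared Etv4 in B had adjusted p = 0.0536.

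**Figure D2:**
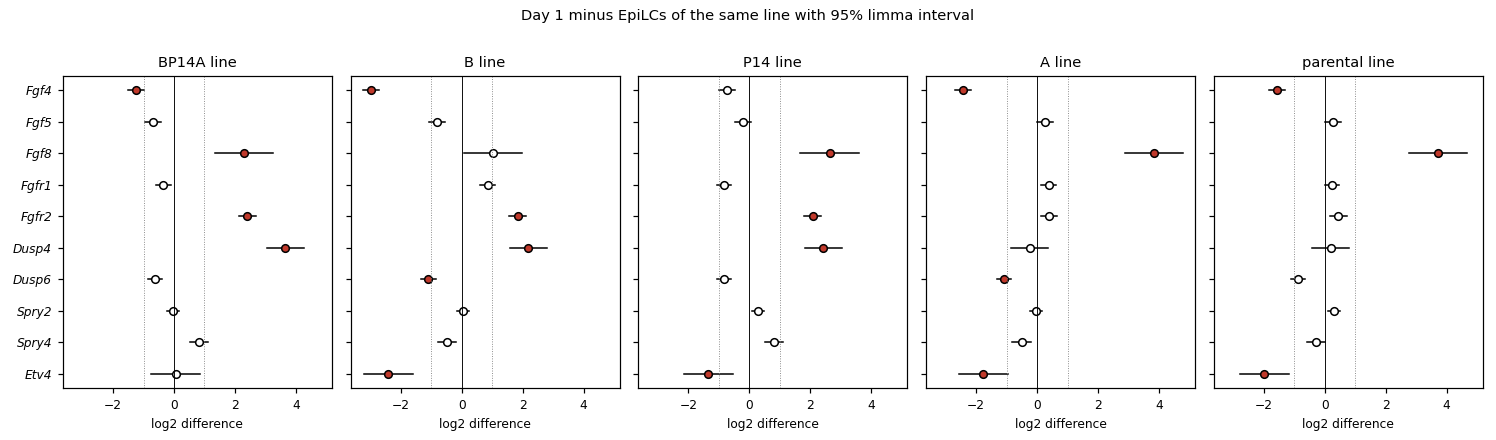
Log2 difference of day 1 minus EpiLCs (x axis) for each of the 10 genes (y axis) in each line, with 95% limma intervals. Filled points are called and dotted lines mark the size limit of 1. Fgf4 is left of 0 in all 5 lines, whereas Dusp4 and Fgfr2 are filled in BP14A, B and P14.

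On day 1, against parental aggregates, 3 of the 10 genes were called in BP14A, 4 in B, 5 in P14 and 0 in A. Over all genes tested the shares called were 6.62% in BP14A, 2.6% in B, 5.38% in P14 and 0.0286% in A, and the last is 4 genes (12 without the second parental array), with 927 at an unadjusted p under 0.05. The median of the 10 genes was 0.23 in BP14A, −0.34 in B, 0.52 in P14 and −0.12 in A, beside medians of all genes of −0.02, 0.03, −0.04 and −0.03. In all, 7 of the 10 genes were called in at least 1 line, and Fgf5, Dusp6 and Spry2 in none; of all genes tested, 9.14% were called in at least 1 line. These comparisons share the parental arrays, so the lines' differences are not independent of each other.

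Among the ligands, Fgf4 was higher in the P14 line than in the parental line and lower in the B line. Its day 1 values were 9.04 and 8.71 in BP14A, 7.07 and 7.11 in B, 9.48 and 9.51 in P14 and 7.47 and 7.65 in A, against 8.43 and 8.52 in the parental line. No line's arrays overlapped the parental ones. The difference was −1.39 ± 0.12 in B (limma adjusted p = 1.47e-05) and 1.02 ± 0.12 in P14 (adjusted p = 5.87e-05), where Fgf4 stood between its EpiLC and parental day 1 levels. The differences in BP14A (0.40, limma adjusted p = 0.0265) and in A (−0.92, adjusted p = 0.0162) were under the size limit. The P14 call stood at that limit: it ended without the first parental array (0.98) and with arrays centred on their medians (0.995). The B and P14 lines differed directly by 2.41 ± 0.12 (P14 minus B, limma adjusted p = 5.04e-08).

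The probe sets of Fgf4 did not all show this. The values above come from 1 of 3 probe sets designed on the same expressed sequence, which the platform annotation assigns to Fgf4; whether that sequence belongs to the Fgf4 transcript was not tested. The 3 differed in B by −1.39, −1.37 and −0.89 and in P14 by 1.02, 1.19 and 0.74. The last of them averaged 3.465 in parental and 2.575 in B aggregates, below the filter level, so its sizes are approximate. The other probe set, designed on the reference transcript, differed by 0.07 in B and 0.28 in P14, and its group means spanned 0.40 over all 10 groups. Averaged over the 4 probe sets, Fgf4 was not called in either line (−0.89 and 0.81).

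Fgf8, a gene of the caudal epiblast and primitive streak, was lower in B than in parental aggregates, though not below its own EpiLC level. It read 5.21 and 5.07 in BP14A, 3.44 and 2.77 in B, 4.95 and 5.08 in P14 and 6.50 and 6.54 in A, against 5.98 and 5.64 in the parental line. Both B arrays lay under the filter level and under every other day 1 array. The difference in B was −2.71 ± 0.44 (limma adjusted p = 0.00131), an approximate size, and a fit on the 4 arrays compared gave adjusted p = 0.0539. It was lower in B than in BP14A and P14 when the lines were compared directly (BP14A minus B 2.04, limma adjusted p = 0.00386, and P14 minus B 1.91, adjusted p = 0.00571). The differences in BP14A, P14 and A from the parental line were −0.67, −0.80 and 0.71, with adjusted p = 0.307, 0.232 and 0.875. The summed level of 5 streak and mesoderm markers was 20.2 in BP14A, 20.9 in B, 21.2 in P14 and 23.8 in A aggregates, against 22.7 in the parental line, and its part in the Fgf8 result was not tested. In B, Mixl1 (2.62, under the filter level, against 4.04) and Eomes (5.585 against 6.345) were lower than in the parental line. Mesp1 (4.90 against 4.875), Kdr (3.585 against 3.41) and Tbx6 (4.165 against 4.005) were slightly higher. The signs were the same in BP14A and P14, so the sum joins rises and falls.

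Fgf5, the classical primed epiblast ligand, differed less. It read 9.57 and 9.76 in BP14A, 9.67 and 9.54 in B, 10.11 and 10.30 in P14 and 10.82 and 10.69 in A, against 10.43 and 10.75 in the parental line. BP14A, B and P14 arrays all lay below the parental ones. The differences, −0.93 in BP14A, −0.99 in B and −0.39 in P14, had limma adjusted p of 0.000101, 0.000200 and 0.0365 and were under the size limit. Without the first parental array those in BP14A and B passed it (−1.09 and −1.15), as did the one in BP14A without its second array (−1.02) and the one in B without its first (−1.05), after median centring (−1.07) or after quantile normalization (−1.02). The second Fgf5 probe set differed by −0.37 in BP14A and −0.34 in B.

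The 2 receptors moved differently. Fgfr2, which binds mainly ligands from neighbouring tissue in its epithelial form, read 7.94 and 8.21 in BP14A, 7.58 and 7.62 in B, 7.54 and 7.81 in P14 and 6.24 and 6.23 in A, against 6.23 and 6.22 in the parental line. The arrays of BP14A, B and P14 were all above the parental ones by more than 1, and those of A were within 0.02 of them. Fgfr2 was higher than in the parental line by 1.85 ± 0.13 in BP14A (limma adjusted p = 4.38e-07), by 1.38 in B (adjusted p = 2.41e-05) and by 1.45 in P14 (adjusted p = 4.81e-06). In A it differed by 0.01 (interval −0.27 to 0.29). A second probe set was higher by 1.14 in BP14A and 1.03 in P14 and differed by 0.81 in B, and the remaining one was under the filter level in all 10 groups.

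Fgfr1, the main receptor for Fgf4 in pluripotent cells, was lower in P14 than in the parental line. It read 7.52 and 7.69 in BP14A, 8.85 and 8.98 in B, 7.25 and 7.05 in P14 and 8.50 and 8.33 in A, against 8.38 and 8.28 in the parental line. P14 and BP14A arrays were below all others of day 1 and B arrays above all others. The difference in P14 was −1.18 ± 0.11 (limma adjusted p = 7.04e-06). The differences in BP14A (−0.73, adjusted p = 0.000281) and in B (0.59, adjusted p = 0.00306) were under the size limit. P14 and B differed directly by −1.77 ± 0.11 (P14 minus B, adjusted p = 2.09e-07). Both other Fgfr1 probe sets had the same signs with smaller sizes, −0.63 and −0.48 in P14 and 0.32 and 0.28 in B, and averaged over all 3 the P14 difference was −0.76.

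The phosphatases also differed from each other. Dusp4, the nuclear phosphatase, had the largest positive difference of the 10 genes in each of BP14A, B and P14. It read 9.96 and 9.80 in BP14A, 8.21 and 9.05 in B, 8.63 and 9.25 in P14 and 5.65 and 6.31 in A, against 6.46 and 6.57 in the parental line. The arrays of BP14A, B and P14 lay above every parental array, and both A arrays lay below. Dusp4 was higher than in the parental line by 3.37 ± 0.28 in BP14A, or 10.3-fold (limma adjusted p = 2.43e-06), by 2.12 in B (adjusted p = 0.000346, and 0.0755 in a fit on the 4 arrays alone) and by 2.43 in P14 (adjusted p = 4.89e-05). BP14A exceeded B by 1.25 (limma adjusted p = 0.00497), a difference of 0.83 (adjusted p = 0.0594) without the first B array. BP14A exceeded P14 by 0.94 (interval 0.33 to 1.55, adjusted p = 0.0753).

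Dusp6, the cytoplasmic ERK phosphatase, read 10.13 and 10.22 in BP14A, 9.90 and 9.59 in B, 10.27 and 10.15 in P14 and 9.86 and 9.64 in A, against 10.14 and 10.11 in the parental line. Its differences from the parental line were 0.05 in BP14A, −0.38 in B, 0.09 in P14 and −0.38 in A. Of these the one in B passed the adjusted p (limma, 0.0317), and its interval of −0.62 to −0.14 lies within the size limit. Dusp4 and Dusp6 have 1 probe set each, so neither had a second reading.

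Spry4, a Sprouty inhibitor, was higher in P14 than in parental aggregates. It read 9.0 and 9.07 in BP14A, 7.67 and 7.87 in B, 9.37 and 9.29 in P14 and 7.87 and 7.65 in A, against 8.08 and 8.07 in the parental line. The P14 and BP14A arrays were above all others and the B and A arrays below the parental ones. The difference was 1.26 ± 0.14 in P14 (limma adjusted p = 3.33e-05) and 0.96 in BP14A (adjusted p = 0.000218), where it was under the size limit. In B and A it was −0.31 and −0.32 (adjusted p = 0.162 and 0.732). Spry4 and Fgfr1 thus stood on opposite sides in P14 and BP14A. The dimmer Spry4 probe sets gave 0.18 and 0.27 in P14 and 0.10 and 0.12 in BP14A, and another was under the filter level in every group. Averaged over its 3 probe sets, the P14 difference was 0.57, so the Spry4 result rests on 1 probe set.

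Spry2 had the smallest span of the 10 genes, 0.31 between its lowest and highest group mean. Its differences from the parental line ran from −0.27 to −0.01 on day 1, the largest being in BP14A (interval −0.47 to −0.07, limma adjusted p = 0.0457). The second Spry2 probe set differed by −0.61 in BP14A, −0.37 in B and −0.06 in P14.

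Etv4, the ETS factor downstream of ERK, stayed near its EpiLC level in the BP14A line. It read 6.56 and 6.55 in BP14A, 3.54 and 5.09 in B, 5.68 and 5.72 in P14 and 5.29 and 4.51 in A, against 4.79 and 4.69 in the parental line. On day 1 the BP14A and P14 arrays lay above all others, and the B arrays lay on both sides of the parental ones. Etv4 was higher in BP14A than in the parental line by 1.82 ± 0.37 (limma adjusted p = 0.00272). It differed by 0.96 in P14 (adjusted p = 0.0837), 0.16 in A (adjusted p = 0.984) and −0.43 in B (adjusted p = 0.497). The second Etv4 probe set differed by 0.95 in BP14A and was not called. The B arrays decided the B value: without the second B array the difference was −1.20 (adjusted p = 0.00908). BP14A exceeded B by 2.24 (adjusted p = 0.000621, and 0.0881 in a fit on the 4 arrays alone).

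**Figure D3:**
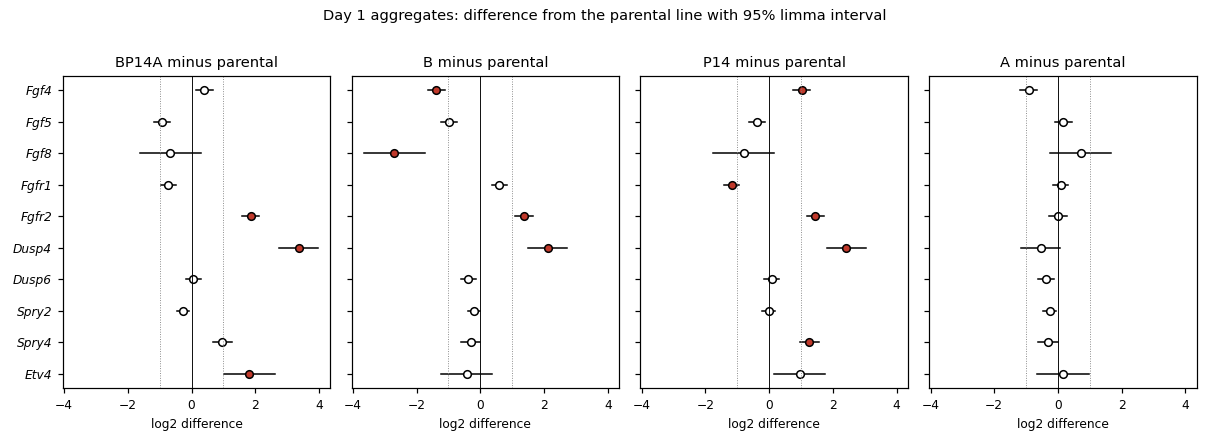
Log2 difference on day 1 from the parental line (x axis) for each of the 10 genes (y axis) in BP14A, B, P14 and A, with 95% limma intervals. Filled points are called and dotted lines mark the size limit of 1. Dusp4 and Fgfr2 are filled in BP14A, B and P14, and no point is filled in A.

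**Figure D4:**
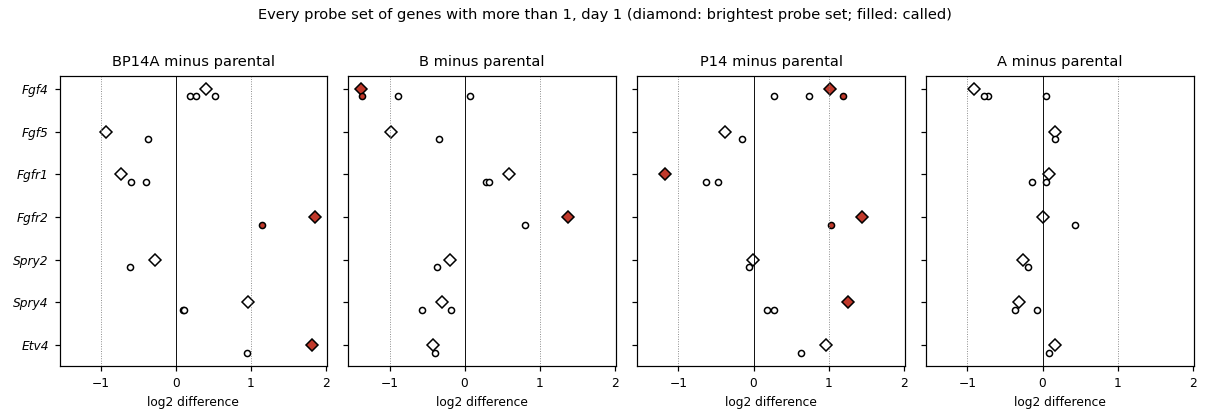
Log2 difference on day 1 from the parental line (x axis) at every probe set that passed the filter, for the 7 genes with more than 1 (y axis), with diamonds for the brightest probe set and filled symbols for calls. One Fgf4 probe set stays at 0.07 in B while another reaches −1.39, and the dimmer Spry4 probe sets stay at 0.18 and 0.27 in P14.

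Tested probe set by probe set, 21 of the 23 passed the filter, and 9 of them were called in at least 1 line on day 1. The counts were 4 in BP14A, 5 in B, 7 in P14 and 0 in A, beside 5.80%, 2.15%, 4.63% and 0.00789% of the 25357 probe sets tested. The last share is 2 probe sets, and 8.01% of all probe sets were called in at least 1 line.

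The direct comparison of BP14A with P14 called none of the 10 genes, beside 1.05% of all genes (147 of 14010, and 2673 at an unadjusted p under 0.05). Fgf4 and Fgf5 differed by −0.62 (interval −0.88 to −0.36) and −0.54 (−0.80 to −0.28), and Fgfr1 by 0.46 (0.22 to 0.69), with limma adjusted p of 0.00898, 0.0198 and 0.0265, all under the size limit. The interval for Etv4, 0.05 to 1.66, and that for Dusp4 reach past 1. BP14A against B called 6 of the 10, with Fgf4, Fgf8, Dusp4, Spry4 and Etv4 higher and Fgfr1 lower, beside 6.47% of all genes. P14 against B called 5 of the 10, Fgf4, Fgf8, Spry4 and Etv4 higher and Fgfr1 lower, beside 6.55% of all genes. The Spry4 differences were 1.27 in BP14A and 1.56 in P14 against B, and both missed the size limit with averaged probe sets (0.74 and 0.92). So did Fgfr1 in BP14A against B (−0.97). With only the arrays compared, Dusp4 and Etv4 in BP14A against B had limma adjusted p = 0.0893 and 0.0881, and Etv4 in P14 against B 0.200. Under limma's treat against 0.5, Dusp4 in BP14A (adjusted p = 0.135) and Fgf8 and Etv4 in P14 (0.0592 and 0.207) were not called against B. Against B, Etv4 in P14 was no longer called without the first B array (0.61) or either P14 array (limma adjusted p = 0.0542 and 0.0627), and Fgf8 in P14 not without the second B array (1.58, adjusted p = 0.0564). For Fgfr2 the P14 and B lines differed by 0.08 (interval −0.20 to 0.35) and for Dusp4 by 0.31 (−0.30 to 0.92).

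Whether the day 1 change itself differed from the parental one was tested as the difference between the 2 changes, which removes each line's starting level. It was called for 4 of the 10 genes in BP14A, 5 in B, 4 in P14 and 0 in A, beside 6.95%, 2.4%, 4.55% and 0% of all genes. In A that is 0 of 14010 genes by limma, 2 without the second parental day 1 array, with 652 at an unadjusted p under 0.05. Fgfr2 and Dusp4 rose more than in the parental line in BP14A (by 1.97 and 3.46), B (by 1.41 and 1.99) and P14 (by 1.64 and 2.24), the parental changes not being called. Spry4 was called in BP14A and P14 (1.12 and 1.11), Etv4 in BP14A (2.03), and Fgfr1 in P14 (−1.08). In B, Fgf4 (−1.40), Fgf5 (−1.07) and Fgf8 (−2.68) were called.

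Single arrays decided several of these calls. In BP14A, Etv4 and Spry4 were no longer called without the first BP14A EpiLC array (1.91, limma adjusted p = 0.0558, and 0.98, under the size limit), and Etv4 not without the second parental day 1 array (adjusted p = 0.0515). In B, Fgf8 was not called without the first parental array of either stage or without the second B array of either stage (adjusted p from 0.0719 to 0.0735), and Fgf5 not without the second parental day 1 array (−0.91). In P14, Spry4 was not called without the first P14 EpiLC array (0.94), and Fgfr1 not without the second parental EpiLC array (−0.97) or the second P14 day 1 array (−0.98). Gained calls were Fgf5 in BP14A without its first EpiLC or second day 1 array or the first parental day 1 array (−1.02, −1.03 and −1.09), Fgf8 in BP14A without the second parental EpiLC array (−2.07) and Etv4 in B without the second B day 1 array (−1.20). The Spry4 differences became 0.58 in BP14A and 0.56 in P14 with averaged probe sets, with adjusted p = 0.0644 and 0.103. Averaging also ended the calls of Fgf4 (−0.78) and Fgf5 (−0.80) in B and of Fgfr1 in P14 (−0.81). With only the arrays compared, Fgf5, Fgf8 and Dusp4 in B had limma adjusted p = 0.0584, 0.110 and 0.0655. They also lost their calls under treat, limma's test against a log2 difference of 0.5. So did Spry4 in BP14A and P14 and Etv4 in BP14A.

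**Figure D5:**
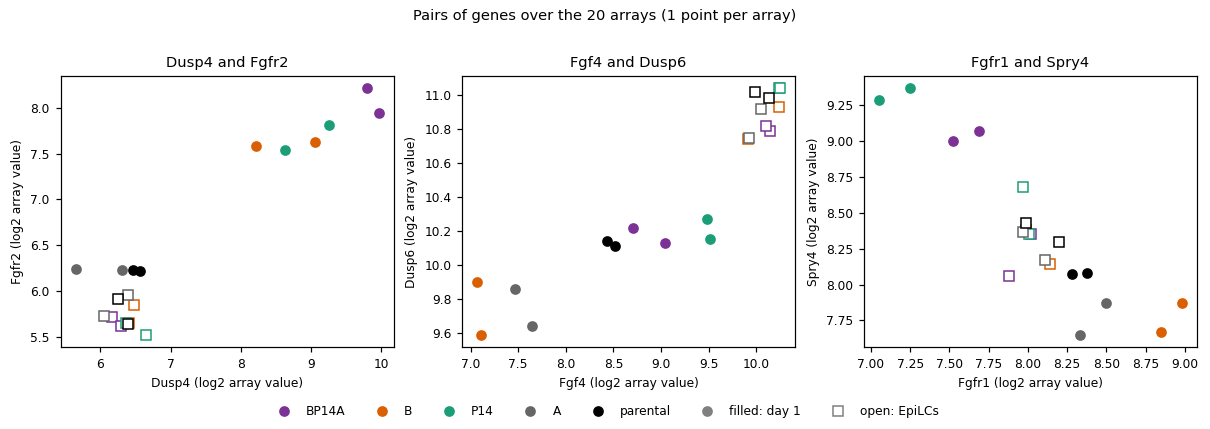
Log2 array values of 3 pairs of genes over the 20 arrays, 1 point per array, coloured by line, filled for day 1 and open for EpiLCs. EpiLC arrays form 1 cloud in each panel, Dusp4 and Fgfr2 are high together in BP14A, B and P14 on day 1, and Spry4 is high where Fgfr1 is low in P14 and BP14A.

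Over the 10 group means, the genes most like the 4 widest-ranging members were ranked by Pearson r among 4129 other genes that spanned at least 1. These values are descriptions: the 5 EpiLC groups lie close together, and all genes share the same arrays. For Fgf8 the nearest were Sp8 (r = 0.97), Vwa5a (0.95) and Iqgap2 (0.94). For Dusp4 they were AU015836, Sox2 and Slc12a2 (0.98 each), where Sox2 encodes a core pluripotency factor. For Fgf4 they were Smpdl3b (0.99), Pvt1 (0.98) and 1190005I06Rik (0.98), and for Etv4 Nphs1os (0.98), Wdr34 (0.98) and Alkbh2 (0.97).

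A list of 78 further pathway genes, written from general knowledge, had 62 tested members. On day 1 against the parental line, 1 was higher and 5 lower in BP14A, 2 higher and 4 lower in B, and 2 higher and 4 lower in P14, while 0 were called in A. The 6 called in each of BP14A, B and P14 are 9.68% of the 62, beside 6.62%, 2.6% and 5.38% of all genes. The list medians were −0.08, 0.00, 0.03 and −0.02 in BP14A, B, P14 and A, beside −0.02, 0.03, −0.04 and −0.03 for all genes. Such a difference can come from the line, from the parental change or from both, so the day 1 change of each gene is given where it was not called in the line. The 13 genes listed as ligands are FGF family genes and include intracellular ones such as Fgf14. In BP14A and B 15.4% of them were called, and in P14 7.69%. Fgf15, the mouse counterpart of human FGF19, was lower in BP14A (−1.73) and B (−1.67) and differed by −0.23 in P14 (limma adjusted p = 5.16e-06, 2.88e-05 and 0.359). Fgf14, an intracellular FGF family member, was below the filter level in day 1 aggregates and EpiLCs of BP14A (2.74 and 2.70) and P14 (2.37 and 3.14), while it read 5.23 in parental aggregates against 2.12 in parental EpiLCs. Its differences of −2.49 in BP14A and −2.86 in P14 are therefore approximate. Fgf18 was higher in B by 1.19 (adjusted p = 0.0344), also an approximate size, since it read 2.78 in parental aggregates, and its day 1 change in B was −0.10. None of 4 further receptors and coreceptors was called in any line.

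Of 9 genes listed as adaptors or exchange factors, the membrane protein gene Flrt3 among them, 1 was called in each of BP14A, B and P14 (11.1%). So were 1 of 8 genes for RAS, RAF, MEK and ERK proteins (12.5%) and 1 of 14 further feedback inhibitors (7.14%). Beside these stand 6.62%, 2.6% and 5.38% of all genes, and each of the list shares rests on 1 gene. Shc1, which links receptors to RAS, was lower in BP14A (−1.09) and P14 (−1.15), and Flrt3, a membrane partner of FGF receptors, was higher by 1.43 in B. Of 8 genes for RAS, RAF, MEK and ERK proteins, Eras, a RAS-like gene of embryonic stem cells, was lower than in parental aggregates in all 3 lines. Its means were 8.57 in BP14A, 9.32 in B and 9.46 in P14, against 10.90 in the parental line, with differences of −2.33, −1.58 and −1.44 (limma adjusted p = 5.11e-09, 6.00e-07 and 3.83e-07). Against own EpiLCs it rose by 1.29 in the parental line and fell in BP14A (−1.03), while its changes in B (−0.26) and P14 (−0.11) were not called. Of 14 further feedback inhibitors, Spred3, which blocks RAS to RAF signalling, was lower in BP14A (−2.64) and P14 (−2.46) and differed by −0.05 in B (adjusted p = 0.933). Dusp9 was lower in B (−1.02) and differed by 0.60 in BP14A and 0.33 in P14.

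Of 14 further ERK targets, 7.14% were called in BP14A and in B and 14.3% in P14, beside 6.62%, 2.6% and 5.38% of all genes. Junb was higher by 1.14 in BP14A (limma adjusted p = 0.00758). In P14, Egr1, an immediate early gene, was higher than in parental aggregates by 1.39 (adjusted p = 0.00478) and Myc by 1.36, and their changes from P14 EpiLCs were −0.05 and −0.51, neither called. Myc was lower in B (−2.62). In the parental line itself, day 1 against EpiLCs, 3 of the 62 rose and 6 fell, or 14.5%, beside 6.59% of all genes. Egr1, Ier3, Myc and Phlda1, all ERK targets, fell (−1.39, −1.39, −1.88 and −1.07). Gab1, an adaptor, and Fgf18 also fell (−1.92 and −1.51, the Fgf18 size being approximate because it ended below the filter level), and Eras, Spred3 and Fgf14 rose by 1.29, 1.19 and 3.11, the last from below the filter level. The median of the 62 was −0.10, beside 0.05 for all genes.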

How the data were processed

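RNA of 20 samples was read on Affymetrix arrays; per the labels, column-purified RNA was turned into biotin-labelled cRNA by a one-cycle protocol. The authors deposited log2 values of 0 to 13.83 for each probe set; the base was inferred from this range. How they were normalized and summarised was not given in the sources used here. Nothing was rescaled.

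Genes were named by the platform annotation, which gave 1 symbol for 34958 probe sets, several for 932 and none for 9211; Entrez identifiers of all members matched the same symbols in RefSeq on GRCm38.p6. Control probe sets (64) were left out. Probe sets whose highest group mean reached the 40th percentile of all values, 3.95, were kept, and the brightest stood for its gene, leaving 14010 of 18193 genes. All 10 members had a probe set that passed. limma 3.58.1 (R 4.3.3) fitted 10 group means over all 20 arrays (10 residual and 1.79 prior degrees of freedom), with contrasts for 20 comparisons, two-sided p values adjusted by Benjamini-Hochberg over all genes, and 95% intervals. The same fit was run on 25357 probe sets. Errors are limma standard errors. The fit was tested on simulated data. Python 3.11.15 and pandas 2.3.3 read the sequences.

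The members and lists were chosen with earlier results of these data known. Named are all members, the called genes of the pathway list in the parental change and in the 4 day 1 comparisons, and the 3 nearest genes by Pearson r of the 4 members with the widest group means. CCAAT was added after the sequences were seen and the 4 others were chosen from general knowledge. Alternatives were median centring, quantile normalization, no filter or a filter at the 60th percentile, averaged probe sets, only the arrays compared, the replicate number as a block, treat against 0.5, a trended robust prior and leaving out each array; where 1 array of a group remains, its spread is taken from the other groups.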

Additional observations from a re-analysis of the deposited data

Results flagged for a closer look

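The change on day 1 differed from that of the parental line, by limma's test of the difference between both changes over all 14010 genes, for 13 combinations of gene and line. In BP14A these were Fgfr2 (1.97 ± 0.18, SE, adjusted p = 1.16e-05), Dusp4 (3.46 ± 0.40, adjusted p = 6.95e-05), Spry4 (1.12 ± 0.20, adjusted p = 0.00158) and Etv4 (2.03 ± 0.52, adjusted p = 0.0167). In B they were Fgfr2 (1.41 ± 0.18, adjusted p = 0.000741), Dusp4 (1.99 ± 0.40, adjusted p = 0.00969), Fgf4 (−1.40 ± 0.17, adjusted p = 0.000518), Fgf5 (−1.07 ± 0.17, adjusted p = 0.00295) and Fgf8 (−2.68 ± 0.62, adjusted p = 0.02). In P14 they were Fgfr2 (1.64 ± 0.18, adjusted p = 8.10e-05), Dusp4 (2.24 ± 0.40, adjusted p = 0.00254), Spry4 (1.11 ± 0.20, adjusted p = 0.00254) and Fgfr1 (−1.08 ± 0.15, adjusted p = 0.000552). The Fgf8 size is approximate, since its means in B and in all EpiLCs lay below the filter level. The Fgf4 value comes from probe sets on an expressed sequence whose place in the Fgf4 transcript was not tested. With 2 arrays a group, no test for an outlying array applies.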

How the results depend on the processing

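Of the 56 calls of the 10 genes over 20 comparisons, 30 kept their call and direction under every alternative run. Of 2760 alternative values, 2690 stayed on their side of the threshold, 58 lost a call, 12 gained one and 0 changed sign where called. With averaged probe sets, 2 instead of 5 members were called in P14 against the parental line on day 1, and for the difference between changes 3 instead of 5 in B and 2 instead of 4 in P14. With only the arrays compared, 2 instead of 4 were called in B on day 1 and 2 instead of 5 for the difference in B. Under treat, the difference was called for 2 instead of 4 members in BP14A and 2 instead of 5 in B, and P14 against B for 3 instead of 5. Leaving out each array gave 3 to 4 calls in BP14A, 4 to 5 in B, 4 to 5 in P14 and 0 in A against the parental line on day 1. For the difference between changes it gave 3 to 5, 4 to 5, 3 to 4 and 0 calls, and against own EpiLCs 4 in BP14A, 4 to 5 in B, 3 in P14, 3 to 4 in A and 3 in the parental line. BP14A against B kept 5 to 6 calls and P14 against B 4.

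Over 45 pairs of groups, the deviations of same-numbered arrays from their group means correlated at −0.06 to 0.20 (median 0.02, over 0.1 in 6 pairs). By this measure 18 of 20 arrays correlated best with their own number, a hint from the data and not the design. The 2 deviations of a group mirror each other, so both its arrays always give the same answer and the 20 are not independent. The numbers were not taken as pairs, since not every correlation passed 0.1. The replicate block left the number of members called as it was in all 20 comparisons, 4 in B and 5 in P14 on day 1 for example. Over all genes, the 364 calls in B against the parental line became 204 under treat and 142 with only the arrays compared, and the 147 in BP14A against P14 became 51 and 0. The difference between changes gave 610 calls instead of 973 in BP14A, 111 instead of 336 in B and 376 instead of 637 in P14 under treat, and 173 in B with only the arrays compared. Over all alternatives and left-out arrays, the 4 calls in A on day 1 ranged from 0 to 12, the 0 for the difference in A from 0 to 2, and the 2, 11, 5 and 4 in EpiLCs of BP14A, B, P14 and A from 0 to 10, 3 to 26, 1 to 16 and 0 to 9. Median centring put 42.58% of the calls in B on day 1 higher, against 53.85% without it, and 40.98% against 55.65% for the difference in B. The precision is limited by 2 arrays a group and, for Fgf8, by values near background.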
